A study of Ovis aries with 115 samples.

Results

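The genes CD177 (ENSOARG00000008513) and AQP9 (ENSOARG00000020858) were examined across the ewe cervix, 2 of the 27054 identifiers in the count tables of the series. They were taken by identifier, and were chosen by their fold changes from the Suffolk breed in synchronised follicular ewes, CD177 in Norwegian White Sheep (NWS) and AQP9 in Belclare. Those fold changes are given below as a description with no test. The study asked why pregnancy after cervical insemination with frozen-thawed semen differs between ewe breeds, with Suffolk as the breed of low fertility. Post-mortem tissue from the middle of the cervix of multiparous ewes was sequenced in 3 states, and each ewe gave 1 library. In the follicular phase of a natural cycle there were 10 Belclare, 10 Fur, 10 NWS and 8 Suffolk ewes. In the follicular phase of an induced cycle, in which the ewes had carried a progestagen sponge and received gonadotrophin, there were 10 Belclare, 8 Fur, 10 NWS and 11 Suffolk ewes. In the luteal phase of an induced cycle there were 10 Belclare, 9 Fur, 8 NWS and 10 Suffolk ewes. Belclare and Suffolk were sampled in Ireland and Fur and NWS in Norway. For Fur and NWS against Suffolk, breed therefore cannot be told apart from country, while Belclare and Suffolk share a country. There were no natural luteal ewes, so a comparison of luteal with natural follicular ewes changes the cycle type along with the phase.

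The cervix is lined by a mucus-secreting epithelium that answers to oestradiol in the follicular phase and to progesterone in the luteal phase, and neutrophils can cross it into the lumen. CD177 is a glycoprotein of the Ly6/uPAR family held in the membrane by a lipid anchor. It is best known from the surface of a subset of neutrophils, where it binds PECAM1 on endothelium and displays proteinase 3. AQP9 is an aquaglyceroporin, a channel that passes water, glycerol, urea and other small neutral solutes. It is known from liver and from leukocytes, neutrophils among them, and from epithelia of the male reproductive tract.

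Library totals ran from 12238996 to 31261671 counts, with a median of 17835128. Ewes with a group held between 0 and 4052 counts of CD177 and between 2 and 3386 counts of AQP9. Values below are CPM, read counts of a gene scaled to the size of the library after TMM normalisation, a level that is not corrected for gene length. In whole tissue, fewer cells of a type and less RNA per cell cannot be told apart. A luteal index was set for each ewe from other genes. It was the mean log2 CPM of genes higher in luteal than natural follicular ewes of the other 3 breeds minus the mean of those lower, with 187 to 343 and 368 to 579 genes. By this index 3 ewes were nearer to the other phase than to their label. They were Fur synchronised follicular replicate 3 (index 0.31), NWS natural follicular replicate 3 (0.40) and NWS synchronised luteal replicate 1 (-0.18). Several of the results that hold these ewes are also given without them.

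AQP9 was high in the luteal phase. In the luteal ewes the median over the breeds was 53.9 CPM (n = 37), against 1.52 CPM in natural follicular (n = 38) and 1.27 CPM in synchronised follicular ewes (n = 39). At least 10 CPM was reached by 32 of the 37 luteal ewes, by 4 natural follicular and by 3 synchronised follicular ewes. Luteal Belclare ewes ranged from 17.5 to 148 CPM with a median of 60.6, and luteal Fur ewes from 25.2 to 119 with a median of 58.3. Both groups lay high as a whole. Luteal NWS ewes ranged from 0.336 to 115 CPM with a median of 28.5, and luteal Suffolk ewes from 2.85 to 134 with a median of 18.6. In NWS this spread came as a gap, because replicates 1 and 6 had 0.591 and 0.336 CPM and the other 6 ewes had 21.4 CPM or more.

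AQP9 was low in natural follicular ewes. The Belclare ewes had 0.295 to 24.2 CPM around a median of 1.58, and the Suffolk ewes 0.324 to 14.3 CPM around 3.25. Fur ewes had 0.328 to 3.54 CPM around a median of 0.796, and NWS ewes 0.162 to 11.9 CPM around 1.71. Belclare replicate 6 held 61.5% of the summed AQP9 of its group. In synchronised follicular ewes the median was 1.02 CPM in Belclare, with all ewes between 0.224 and 2.1 CPM. It was 0.797 CPM in NWS, between 0.185 and 5.87 CPM, and 3.85 CPM in Suffolk, between 0.189 and 11.9 CPM. Synchronised follicular Fur ewes ranged from 0.339 to 112 CPM with a median of 1.21. The 112 CPM belonged to replicate 3, the ewe nearer to the luteal phase by the index, which held 90.6% of the group's summed AQP9. The mean of this group was 15.5 ± 39.1 CPM (SD, n = 8) with it and 1.67 CPM without it. When the 12 groups were ordered by mean log2 CPM, the 4 luteal groups took the highest places, in the order Belclare, Fur, Suffolk and NWS. No neighbours in that order differed by more than their pooled SD.

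**Figure D1:**
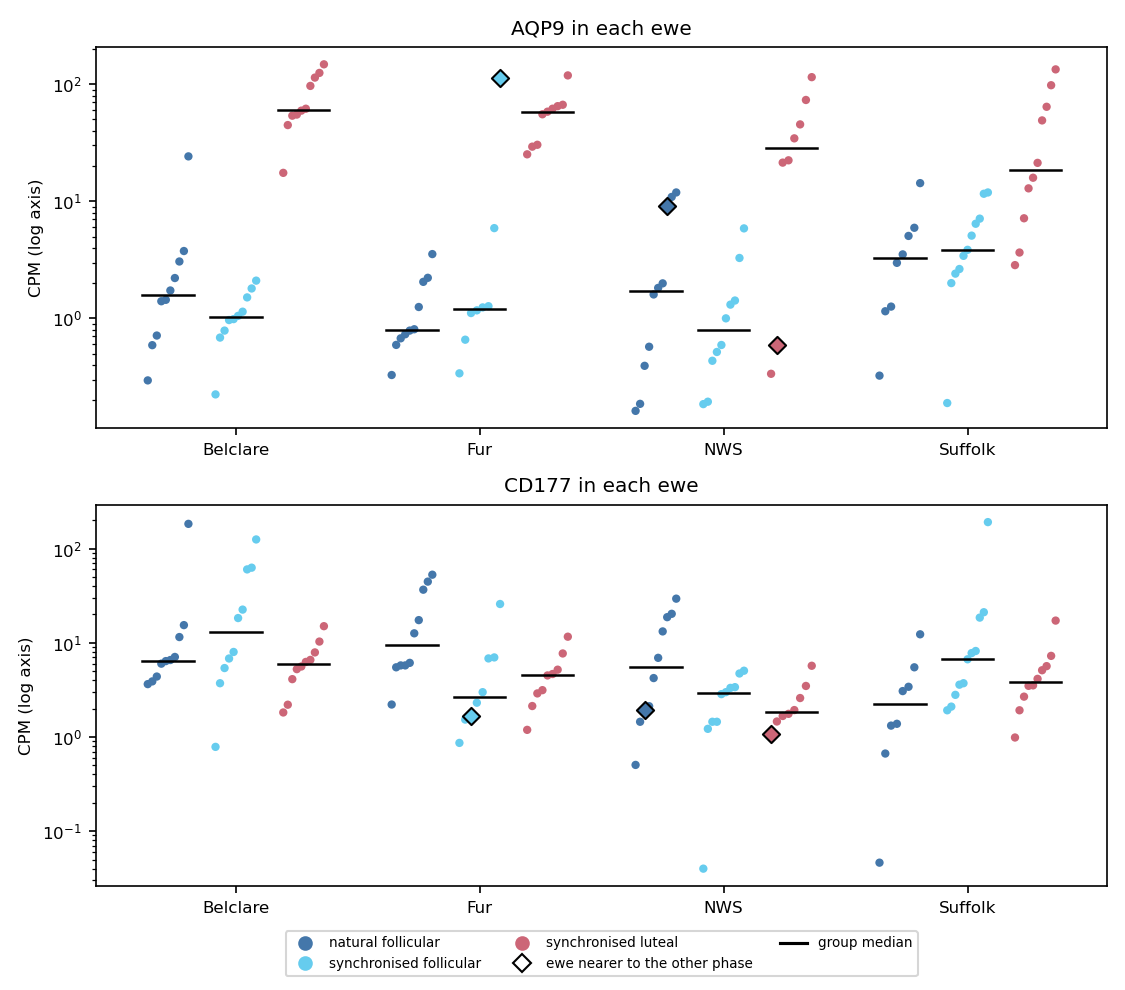
AQP9 (upper panel) and CD177 (lower panel) in each ewe, as CPM on a log axis, by breed and state. Each point is 1 ewe, bars are group medians, diamonds mark the 3 ewes nearer to the other phase, and 1 NWS ewe with no CD177 count is drawn at the lower edge. The luteal ewes hold the highest AQP9 medians (60.6, 58.3, 28.5 and 18.6 CPM), while for CD177 the highest single ewes (183, 125 and 191 CPM) are follicular.

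AQP9 rose from the natural follicular to the luteal phase in all 4 breeds (edgeR quasi-likelihood test, Benjamini-Hochberg adjustment over 15649 genes, with a fold change above 1.5 required). The mean was 77.7 ± 41.2 CPM (SD, n = 10) in luteal and 3.94 ± 7.22 CPM (n = 10) in natural follicular Belclare ewes, a log2 fold change of 4.28 (SE 0.67, adjusted p = 8.21e-05). In Fur it was 56.8 ± 28.6 CPM (n = 9) against 1.3 ± 1.01 CPM (n = 10), a log2 fold change of 5.42 (SE 0.41, adjusted p = 4.23e-08). Every luteal Fur ewe lay above every natural follicular Fur ewe, and 9 of the 10 luteal Belclare ewes lay above their highest natural follicular ewe. NWS had 39.2 ± 38.9 CPM (n = 8) against 3.87 ± 4.77 CPM (n = 10), a log2 fold change of 3.37 (SE 0.92, adjusted p = 0.0225). Suffolk had 40.9 ± 45.1 CPM (n = 10) against 4.32 ± 4.49 CPM (n = 8), a log2 fold change of 3.26 (SE 0.81, adjusted p = 0.0108). Here the groups overlapped, and 6 of 8 NWS and 6 of 10 Suffolk luteal ewes lay above the highest natural follicular ewe of their breed. In these comparisons 9.68% (Belclare), 8.56% (Fur), 3.77% (NWS) and 5.98% (Suffolk) of all genes were called higher in luteal ewes. The NWS call was lost without replicate 2 of the luteal ewes, with 115 CPM (log2 fold change 2.89, adjusted p = 0.0578), and the value was 3.81 (adjusted p = 0.00821) without the 2 NWS ewes nearer to the other phase. Those 2 ewes were left out by the luteal index, which rose with AQP9 across ewes as given below. The value of 3.81 is therefore a description and no separate support.

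Against synchronised follicular ewes, where the labels differ in phase and not in cycle type, AQP9 was tested in Fur and NWS. It rose in luteal NWS ewes (39.2 against 1.48 CPM, log2 fold change 4.72, SE 0.87, adjusted p = 0.000595), a comparison in which 11.7% of all genes were called higher. In Fur the difference of 1.89 (SE 0.97, adjusted p = 0.122) did not pass the test with all ewes, where 24.2% of all genes were called in either direction. It was 5.08 (SE 0.54, adjusted p = 1.86e-06) without Fur synchronised follicular replicate 3. That ewe was left out by the luteal index, which was added after the data were seen and rose with AQP9 across ewes. The value without it is therefore a description and no separate support. Belclare and Suffolk synchronised follicular ewes had entered the choice of AQP9, so their luteal differences are described with no test. The log2 fold change was 6.09 in Belclare, where the groups did not overlap, and 3.05 in Suffolk, where 7 of 10 luteal ewes lay above the highest synchronised follicular ewe.

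Within the luteal ewes, AQP9 followed the luteal index. Over 37 luteal ewes with breed means removed, Pearson's r was 0.90 (permutation p = 1e-05, the smallest that 100000 shuffles can give, and adjusted p = 6e-05 over the 12 relations computed) and Spearman's rho was 0.83 (permutation p = 1e-05). Without the 2 ewes farthest in the index r was 0.87. Both measures come from the same libraries. Within single breeds r was 0.88 in Belclare (n = 10), 0.95 in NWS (n = 8) and 0.95 in Suffolk (n = 10), and it was 0.06 in Fur (n = 9), where AQP9 was high in all the ewes. The index is built from other genes in each breed, so its values are not on 1 scale between breeds. Within their breed the luteal ewes with the lowest index included Suffolk replicates 7, 5 and 4 and NWS replicates 1 and 6. They had 2.85, 3.65, 7.16, 0.591 and 0.336 CPM of AQP9, the lowest values among all luteal ewes. Among synchronised follicular ewes r was 0.61 (n = 39, permutation p = 0.00253, adjusted p = 0.0101), and it was 0.33 without the 2 farthest ewes. Among natural follicular ewes it was 0.26 (n = 38, permutation p = 0.146).

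For CD177 the relation to the index had the opposite sign in follicular and luteal ewes. Among synchronised follicular ewes rho was -0.45 (n = 39, permutation p = 0.0058, adjusted p = 0.0232) and r was -0.32 (permutation p = 0.0439, adjusted p = 0.105), or -0.34 without the 2 farthest ewes. Among natural follicular ewes r was -0.32 (n = 38, permutation p = 0.0636). Among luteal ewes r was 0.28 (n = 37, permutation p = 0.107) and rho was 0.37 (permutation p = 0.0288, adjusted p = 0.0576). The difference between the states was not tested.

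**Figure D2:**
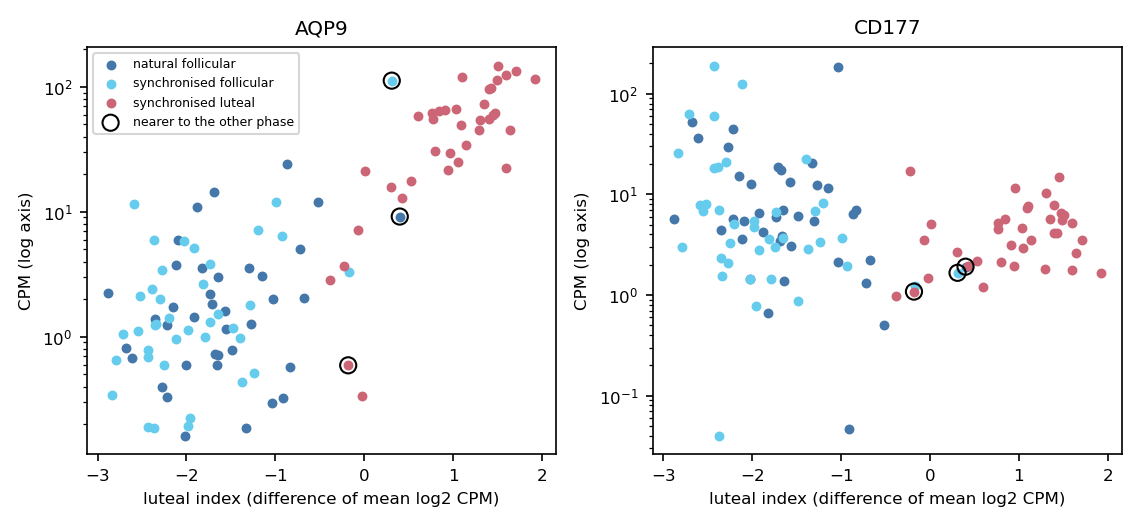
AQP9 (left) and CD177 (right), as CPM on a log axis, against the luteal index, the difference of the mean log2 CPM of luteal and follicular genes other than these, for each ewe with a group. Rings mark the 3 ewes nearer to the other phase, and within luteal ewes r with the index is 0.90 for AQP9 and 0.28 for CD177 with breed means removed, while for CD177 it is -0.32 in natural and in synchronised follicular ewes.

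The breeds were then compared with Suffolk within each state. In the luteal phase no breed differed from Suffolk by the test, with log2 fold changes of 0.92 in Belclare (95% interval -0.30 to 2.13), 0.47 in Fur (-0.74 to 1.69) and -0.05 in NWS (-1.81 to 1.71), and adjusted p between 0.334 and 0.979. Over all genes 2.74%, 14.2% and 4.31% were called in either direction in these 3 comparisons. In the natural follicular phase AQP9 was lower in Fur than in Suffolk (1.3 against 4.32 CPM, log2 fold change -1.72, SE 0.57, adjusted p = 0.0422), where 4.75% of all genes were called lower in Fur. That call was lost without Suffolk replicate 2 with 14.3 CPM (log2 fold change -1.15, adjusted p = 0.15). Belclare and NWS had values of -0.12 (interval -1.73 to 1.5) and -0.17 (-1.82 to 1.48) and were not called, where 0.00639% and 0.927% of all genes were called. Without Belclare replicate 6 the Belclare value was -1.36 (SE 0.60, adjusted p = 0.572). At the synchronised follicular phase, which the choice of genes used, the log2 fold change from Suffolk was -2.18 in Belclare, -1.77 in NWS and 1.61 in Fur, and the Fur value again held replicate 3. The change of the breed difference between natural follicular and luteal ewes was 2.19 in Fur (SE 0.85, p = 0.0147, adjusted p = 0.173), 1.02 in Belclare and 0.09 in NWS, and none was called. The share of all genes called for such a change was 1.23%, 0% and 0.0128%.

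Synchronisation was set against the natural cycle within the follicular phase. AQP9 was called higher in synchronised than natural follicular Fur ewes (log2 fold change 3.56, SE 1.02, adjusted p = 0.0215), where 2.72% of all genes were called higher. Replicate 3 carried that call, since without it the value was 0.37 (SE 0.53, adjusted p = 0.666). In NWS the value was -1.36 (SE 0.76, adjusted p = 0.451), where 0.0128% of all genes were called.

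CD177 behaved otherwise. It was at a few CPM in part of the ewes of every group, spread widely in several follicular groups, and was very high in a few ewes. Its median was 5.88 CPM in natural follicular, 3.72 CPM in synchronised follicular and 4.11 CPM in luteal ewes. At least 10 CPM was reached by 13 natural follicular, 9 synchronised follicular and 4 luteal ewes. At least 50 CPM was reached by 2 natural follicular and 4 synchronised follicular ewes and by no luteal ewe. Among natural follicular ewes the median was highest in Fur at 9.37 CPM, with ewes between 2.21 and 52.8 CPM, and lowest in Suffolk at 2.23 CPM, with ewes between 0.0463 and 12.3 CPM. The Belclare median was 6.47 CPM (3.64 to 183) and the NWS median 5.57 CPM (0.505 to 29.4). Belclare replicate 1 alone held 73.9% of the CD177 of its group. Among synchronised follicular ewes the median was 13.2 CPM in Belclare (0.785 to 125) and 6.68 CPM in Suffolk (1.92 to 191). It was lower in both Norwegian breeds, 2.65 CPM in Fur (0.865 to 25.8) and 2.92 CPM in NWS (0 to 5.05). Suffolk replicate 6 held 71.5% of its group's CD177, while the value of 0 in NWS replicate 9 allows up to 0.185 CPM at 3 counts. Luteal ewes lay closer together, with medians of 5.93 CPM in Belclare (1.82 to 15), 4.5 CPM in Fur (1.19 to 11.6), 1.85 CPM in NWS (1.08 to 5.7) and 3.84 CPM in Suffolk (0.987 to 17.2). The SD of log2 CPM was 0.73 to 1.08 in the luteal groups and 1.52 to 2.17 in the follicular groups. By mean log2 CPM Belclare synchronised follicular ewes were highest and Suffolk natural follicular ewes lowest, and no neighbours among the 12 groups differed by more than their pooled SD.

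CD177 fell from the natural follicular to the luteal phase in 3 of the 4 breeds. In Fur the mean was 18.9 ± 18.6 CPM (SD, n = 10) in natural follicular and 4.78 ± 3.2 CPM (n = 9) in luteal ewes, a log2 fold change of -1.97 (SE 0.57, adjusted p = 0.0098). In NWS it was 9.87 ± 10 CPM (n = 10) and 2.46 ± 1.51 CPM (n = 8), a log2 fold change of -1.97 (SE 0.64, adjusted p = 0.0472). In each of these breeds 5 of 10 natural follicular ewes lay above the highest luteal ewe and the others overlapped. Belclare had 24.8 ± 55.7 CPM (n = 10) and 6.5 ± 3.9 CPM (n = 10), a log2 fold change of -1.92 (SE 0.72, adjusted p = 0.0384), and its medians were 6.47 and 5.93 CPM. Suffolk had 3.47 ± 3.99 CPM (n = 8) and 5.19 ± 4.59 CPM (n = 10), and its value of 0.57 (SE 0.64, adjusted p = 0.548) was not called. The share of all genes called lower in luteal ewes was 10.9% in Belclare, 10.5% in Fur, 5.65% in NWS and 6.99% in Suffolk. Single ewes decided several of these calls. Without Belclare natural follicular replicate 1 the Belclare value was -0.12 (adjusted p = 0.801), without Belclare luteal replicate 8 it was -1.81 (adjusted p = 0.0599), and without NWS natural follicular replicate 7 the NWS value was -1.6 (adjusted p = 0.092). By an exact permutation test of mean log2 CPM, in which single high ewes weigh less, none of the 3 falls passed after adjustment over the 28 comparisons tested so, with differences of -0.71 in Belclare (exact p = 0.273), -1.54 in Fur (exact p = 0.0185) and -1.24 in NWS (exact p = 0.0958).

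In Belclare CD177 was also lower in luteal than in synchronised follicular ewes (6.5 against 31.3 CPM, log2 fold change -2.27, SE 0.67, adjusted p = 0.0105), where 12.5% of all genes were called lower and 5 of 10 synchronised follicular ewes lay above the highest luteal ewe. The same exact test gave -1.27 (exact p = 0.105). In Fur the difference was -0.33 (SE 0.60, adjusted p = 0.671) and became 0.55 without Fur synchronised follicular replicate 1. Suffolk and NWS are described with no test, with log2 fold changes of -2.20 and -0.09. Synchronised and natural follicular ewes differed by 0.31 in Belclare (SE 0.86) and -1.6 in Fur (SE 0.70, adjusted p = 0.123) and were not called, with 0% of all genes called in Belclare. The Belclare value was 2.11 (SE 0.68, adjusted p = 0.999) without Belclare natural follicular replicate 1. The untested values were -1.89 in NWS and 2.81 in Suffolk. Both Suffolk values, -2.20 and 2.81, hold synchronised follicular replicate 6, without which the group mean was 7.64 CPM and not 24.3 CPM, against 5.19 CPM in luteal and 3.47 CPM in natural follicular ewes.

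The breed differences in CD177 are given for each state, and the change from 1 follicular state to the other was not tested. At the synchronised follicular phase, which the choice of genes used, CD177 was lower than in Suffolk in NWS (2.64 against 24.3 CPM, log2 fold change -3.19) and Fur (6.13 CPM, -2.0) and near Suffolk in Belclare (0.36). Suffolk replicate 6 alone raised the Suffolk mean from 7.64 to 24.3 CPM. In the natural follicular phase, in other ewes, every breed had more CD177 than Suffolk on average. The log2 fold change was 2.43 in Fur (SE 0.75, adjusted p = 0.0321), where 4.77% of all genes were called higher, and the call was lost without Fur replicate 10 with 52.8 CPM (2.11, adjusted p = 0.0582). It was 2.85 in Belclare (SE 0.96, p = 0.00792, adjusted p = 0.427), a comparison in which 1 gene in all (0.00639%) was called. Without Belclare replicate 1 that value was 1.05 (SE 0.60, adjusted p = 0.581). It was 1.49 in NWS (SE 0.78, adjusted p = 0.298). By the exact permutation test of mean log2 CPM the differences were 2.6 in Fur (exact p = 0.00516) and 2.23 in Belclare (exact p = 0.00868), and both passed after adjustment over 28 comparisons. The edgeR p-values were adjusted over 15649 genes, so the 2 tests do not share a threshold. In the luteal phase no breed was called, with values of 0.34 in Belclare, -0.10 in Fur and -1.07 in NWS (SE 0.45, p = 0.028, adjusted p = 0.145).

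The breed difference in CD177 changed between the natural follicular and luteal phases by -2.51 in Belclare (SE 1.0, p = 0.0169, adjusted p = 0.332), -2.51 in Fur (SE 0.87, p = 0.00677, adjusted p = 0.126) and -2.56 in NWS (SE 0.94, p = 0.00988, adjusted p = 0.595). None passed the adjusted threshold, and the 3 values share the same Suffolk ewes. The Belclare value was -0.71 (SE 0.74, adjusted p = 0.824) without Belclare natural follicular replicate 1.

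**Figure D3:**
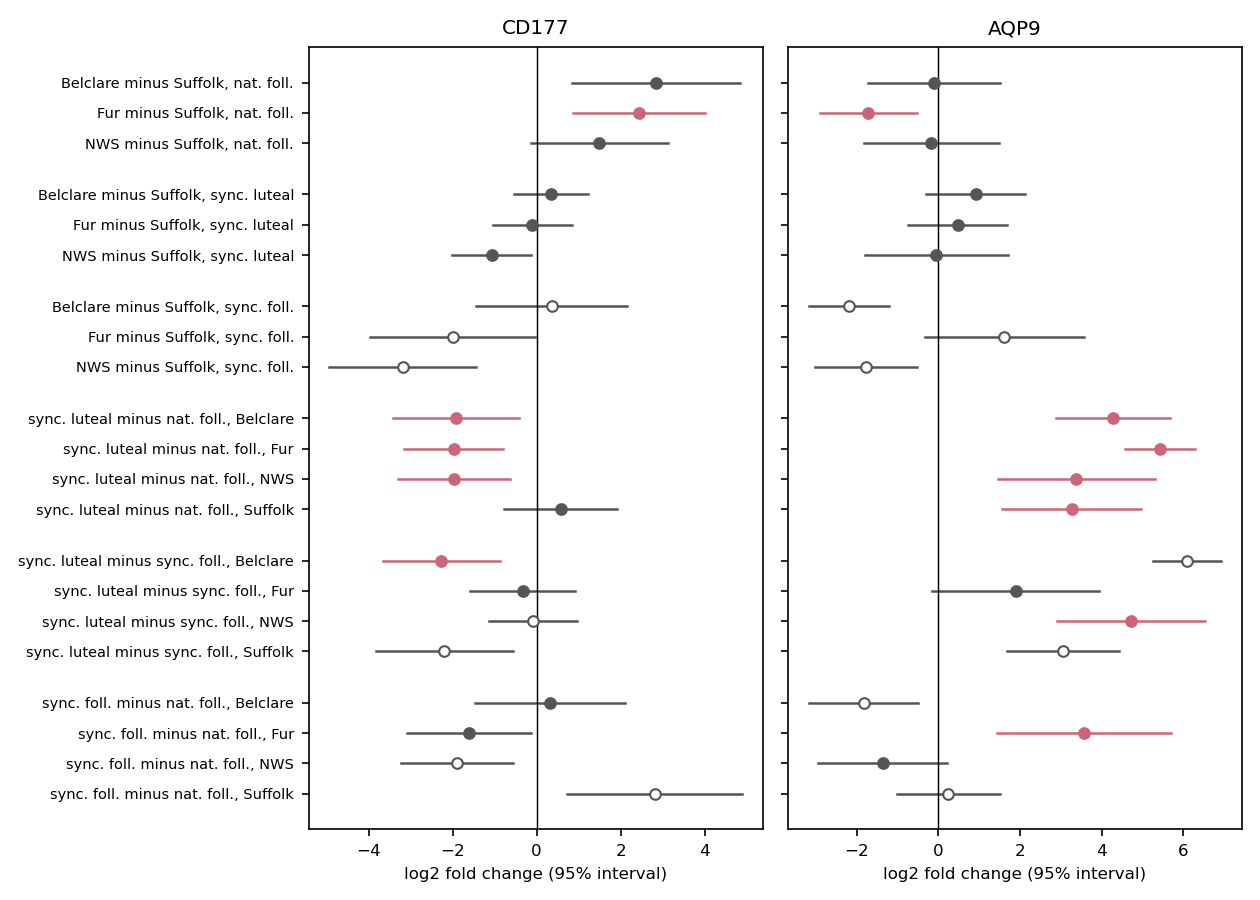
Log2 fold changes of CD177 (left) and AQP9 (right) in each comparison, with 95% intervals (edgeR quasi-likelihood fit of the ewes compared). Filled points were tested, red ones were called, and open points are described with no test because the ewes had entered the choice of the genes. AQP9 is above 0 in all 4 comparisons of luteal with natural follicular ewes (3.26 to 5.42), and CD177 is below 0 in Belclare, Fur and NWS (-1.92 to -1.97).

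Both genes varied widely between ewes of 1 group. The SD of log2 CPM within groups was 1.56 for CD177 and 1.67 for AQP9, against a median of 0.38 over 15649 genes, and 98.7% and 99% of genes varied less. No relation between the genes passed the test over all ewes. With group means removed, r between CD177 and AQP9 was -0.14 over all ewes with a group (permutation p = 0.139, rho -0.12). It was -0.30 in natural follicular (permutation p = 0.0888), -0.24 in synchronised follicular (permutation p = 0.118) and 0.30 in luteal ewes (permutation p = 0.06). In luteal ewes rho was 0.38 (permutation p = 0.0207, adjusted p = 0.0496). The ewe with the most CD177, Suffolk synchronised follicular replicate 6 with 191 CPM, had 0.189 CPM of AQP9, the least in its group. Belclare natural follicular replicate 1, with 183 CPM of CD177, likewise had the least AQP9 of its group (0.295 CPM). Belclare synchronised follicular replicate 7, with 125 CPM of CD177, had 0.967 CPM of AQP9, near its group median of 1.02 CPM. Within single groups r ran from -0.78 (Suffolk synchronised follicular, n = 11) to 0.64 (NWS luteal, n = 8). The Fur ewe with 112 CPM of AQP9 had 1.66 CPM of CD177.

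The label of neutrophil genes was set against a list of neutrophil markers, of which 10 of 46 could be matched to an identifier. Names came only from the study's supplementary tables, whose readable part includes a list of genes higher in Suffolk than Fur at the synchronised follicular phase, so the matched genes are not a neutral draw for that comparison. Most defining neutrophil genes of the list, among them CSF3R, S100A8 and MPO, were not matched and were not analysed here. CXCR2, the neutrophil chemokine receptor, ranged from 0 to 3.1 CPM with a median of 0.421 and had no count in 2 ewes. Across ewes the r of the 10 genes with CD177 ran from -0.28 to 0.19 with a median of 0.02, and with AQP9 from -0.39 to 0.48 with a median of 0.07. The median over all genes was 0.00 and -0.03. The highest values with AQP9 were 0.48 for NFAM1, an activating receptor of myeloid cells, and 0.34 for ITGB2, the shared beta chain of leukocyte integrins.

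In luteal against natural follicular ewes, where AQP9 rose in every breed, none of the 10 neutrophil genes rose, and 4 fell in Belclare, 3 in Fur, 3 in NWS and 3 in Suffolk. Of all genes 10.9%, 10.5%, 5.65% and 6.99% were called lower and 9.68%, 8.56%, 3.77% and 5.98% higher, so that none of 10 higher is near the share of all genes. Without the 2 NWS ewes nearer to the other phase, ITGB2 rose in NWS (0.78, SE 0.26, adjusted p = 0.0405) and 3 of the 10 fell, where 7.66% of all genes were called higher and 8.64% lower. The median log2 fold change of the list was -0.65, -0.51, -0.49 and -0.41, against 0.01, 0.00, 0.00 and 0.00 over all genes. PADI4, a deiminase that modifies histones in neutrophils, fell in all 4 breeds, with log2 fold changes of -5.04 in Belclare (SE 0.57, adjusted p = 4.03e-06), -2.68 in Fur, -2.52 in NWS and -2.6 in Suffolk. CXCR2 fell in Belclare, Fur and NWS (-1.42, -1.97 and -1.69), and LCN2, an iron-binding protein of neutrophil granules that epithelia also make, fell in Belclare and NWS (-1.83 and -1.23). The summed level of the 10 genes was at most 595 CPM in natural follicular, 618 CPM in synchronised follicular and 253 CPM in luteal ewes, and at least 101 CPM in every ewe. The sum is not a level of neutrophils, because it holds genes that are not confined to these cells, LCN2 and ITGB2 being examples. CXCR2 alone reached at most 3.1 CPM. The part of the sum in the CD177 values was not tested. AQP9 had the opposite sign to the list median in all 4 breeds. CD177 fell in Belclare, Fur and NWS, as CXCR2 did, while within groups its r with the 10 genes had a median of 0.02. These signs belong to the phase comparison. In natural follicular Fur against Suffolk, where both genes were called, the list median was -0.59, with CD177 at 2.43 and AQP9 at -1.72. There 1 of the 10 genes was called lower, where 4.75% of all genes were. The names come in part from genes higher in Suffolk than Fur in synchronised follicular ewes. With most markers not matched, the label could not be checked further, and both genes are called here by their names.

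The other lists were as follows in the same comparisons. Of 17 genes listed for neutrophil recruiting signals, 2 were matched, the receptors IL17RA and CCRL2, and neither was called in any breed. The chemokines and cytokines of that list, CXCL8 and CSF3 among them, were not matched and were not analysed. Of the CD177 partners and Ly6/uPAR relatives, PINLYP rose in Fur (0.62, SE 0.24, adjusted p = 0.0439), and ITGB2, LY6E and LY6L were not called in any breed with all ewes. ITGB2, which is also in the neutrophil list, rose in NWS without the 2 ewes nearer to the other phase, as given above. The r of LY6E and LY6L was -0.43 and -0.28 with CD177 and 0.36 and 0.38 with AQP9. Of the aquaporins, AQP5, the water channel of secretory epithelia, fell in luteal Belclare ewes (139 against 297 CPM, log2 fold change -1.09, SE 0.27, adjusted p = 0.00347) and was not called elsewhere. MIP, the water channel of the eye lens, was not called in any breed, and in Belclare its value of 0.54 (SE 0.21, adjusted p = 0.0461) missed the fold change of 1.5. Against synchronised follicular ewes MIP rose in luteal Fur ewes (0.77, SE 0.18, adjusted p = 0.00258), where 12.2% of all genes were called higher. AQP5 fell in that comparison in Belclare (-1.18) and in Suffolk (-0.79, SE 0.30, adjusted p = 0.0473), where 12.5% and 8.19% of all genes were called lower.

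The counts for markers of other cells stand beside the same shares of all genes, 9.68% higher and 10.9% lower in Belclare, 8.56% and 10.5% in Fur, 3.77% and 5.65% in NWS, and 5.98% and 6.99% in Suffolk, and several are near them. In luteal against natural follicular ewes, 5 of 16 lymphocyte genes rose and 1 fell in Belclare, 6 rose in Suffolk, and 1 fell in Fur and 1 in NWS. Of 8 macrophage and dendritic cell genes 1 rose and 3 fell in Belclare, 4 fell in Fur, 1 fell in NWS, and 1 rose and 2 fell in Suffolk. IFI30, a lysosomal reductase, fell in all 4 breeds (-1.22, -1.42, -1.31 and -1.04). Of 17 epithelial genes 3 rose and 3 fell in Belclare, 1 fell in Fur, 1 rose in NWS and 2 fell in Suffolk, the membrane mucin MUC16 falling in Belclare, Fur and Suffolk (-1.73, -1.41 and -1.20). Of 3 smooth muscle genes 1, 2, 2 and 1 fell in Belclare, Fur, NWS and Suffolk. Of 4 acute phase and antimicrobial genes 2 fell in Belclare, 1 in Fur and 1 in NWS, and 1 rose in Suffolk. Without the 2 NWS ewes nearer to the other phase, 2 lymphocyte genes rose and 1 fell, 3 epithelial genes rose and all 3 smooth muscle genes fell in NWS. There 1 macrophage and dendritic cell gene and 1 acute phase and antimicrobial gene fell as well. In that fit 7.66% of all genes were called higher and 8.64% lower. The summed level of the 3 smooth muscle genes ranged from 66.7 to 22600 CPM in natural follicular and from 79 to 9320 CPM in luteal ewes. Its part in the values of CD177 and AQP9 was not tested, and r with the 3 genes ran from -0.11 to -0.07 for CD177 and from -0.32 to -0.11 for AQP9. The epithelial genes had a median r of 0.14 with CD177 (15 of 17 above 0) and 0.21 with AQP9 (16 of 17 above 0). RAB25, a trafficking protein of epithelia, had the highest r of the list with CD177 (0.53). Only genes named in the study's supplementary tables could enter the list, so it is not a neutral draw of epithelial genes.

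**Figure D4:**
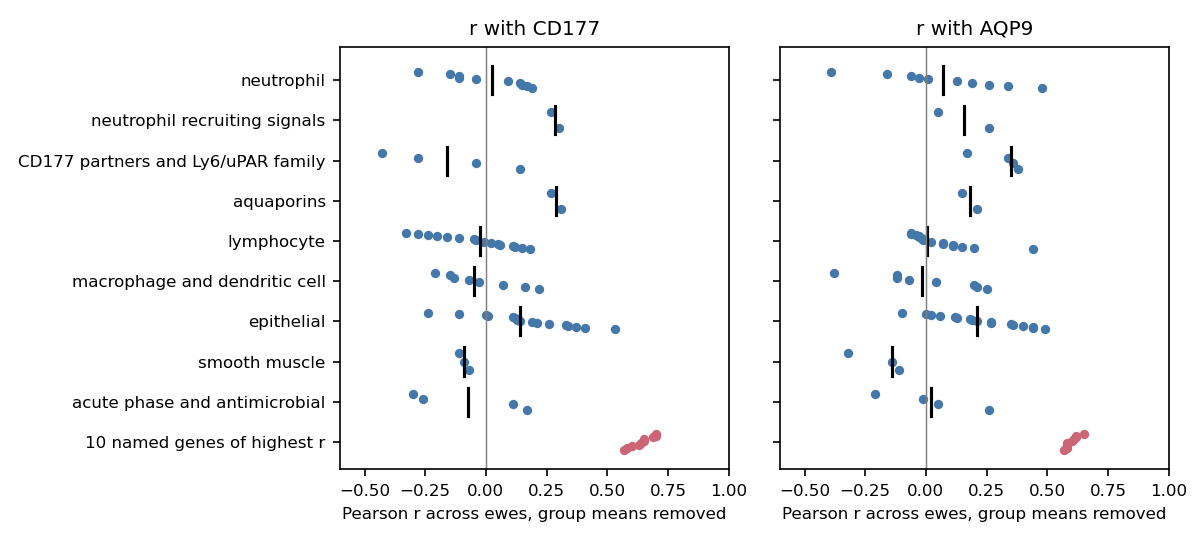
Pearson's r across all ewes with a group, with group means removed, of each listed gene with CD177 (left) and AQP9 (right). Each blue point is 1 gene, black bars are list medians and red points are the 10 named genes of highest r. Neutrophil genes centre near 0 (medians 0.02 and 0.07), and the red points lie at 0.57 to 0.70 for CD177 and 0.57 to 0.65 for AQP9.

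The genes most like CD177 were sought over all 15648 other genes by r across all ewes with a group, as a description. The 10 named genes of highest r were ATP6V1B1 (0.70), HYAL1 (0.70), EPS8L2 (0.69), ZNF750 (0.65), POF1B (0.65), TGM7 (0.64), SLC22A18 (0.63), JUP (0.60), SGSM3 (0.58) and NECTIN4 (0.57). A further 179 identifiers without a name ranked above the tenth, led by ENSOARG00000007770 (0.81). Only 1352 of 27054 identifiers had a name, taken from the study's supplementary tables, so the named genes are not a neutral draw. ZNF750 is a transcription factor of epidermal differentiation, JUP is the junction protein plakoglobin, and NECTIN4 is an adhesion molecule of epithelia. HYAL1 degrades hyaluronan and ATP6V1B1 is a subunit of a proton pump.

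From natural follicular to luteal ewes, 5 of these 10 genes fell in Belclare, 4 in Fur, 3 in NWS and 1 in Suffolk, and none rose, where 10.9%, 10.5%, 5.65% and 6.99% of all genes were called lower. The 10 genes were chosen by r with CD177 in these same libraries, so the counts are a description and no separate support. TGM7, a transglutaminase, fell in all 4 breeds, with log2 fold changes of -3.38, -3.38, -3.71 and -2.6. HYAL1 fell in Belclare (106 to 46.4 CPM, -1.19, SE 0.20, adjusted p = 0.000189), Fur (-0.98) and NWS (-0.96), and ATP6V1B1 fell in the same breeds (-1.08, -1.40 and -0.90). In Suffolk, where CD177 was not called, HYAL1 had -0.53 and ATP6V1B1 -0.42 and neither passed the test. ENSOARG00000007770 fell in Belclare (13.8 to 0.08 CPM), Fur (6.2 to 0.0589 CPM) and NWS (2.24 to 0.0375 CPM) and was at 0.27 and 0.547 CPM in Suffolk, where it was not called.

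The genes most like AQP9 were ACSS3 (0.65), WIPF3 (0.62), RHPN2 (0.62), PRODH (0.61), ADAM7 (0.60), STYK1 (0.58), SGMS1 (0.58), SLC34A2 (0.58), FGF9 (0.58) and PLCH1 (0.57), with 29 identifiers without a name above the tenth, led by ENSOARG00000014558 (0.71). SLC34A2 is a phosphate transporter of epithelia, ACSS3 a mitochondrial acyl-CoA synthetase, PRODH the mitochondrial proline dehydrogenase and SGMS1 a sphingomyelin synthase. Of these 10 genes 9 rose in luteal Belclare ewes, 6 in Fur, 4 in NWS and 3 in Suffolk, and none fell, where 9.68%, 8.56%, 3.77% and 5.98% of all genes were called higher. The 10 genes were chosen by r with AQP9 in these same libraries, and AQP9 followed the luteal index within luteal ewes. Their rises are therefore a description and no separate support. The limit on named genes given for CD177 holds here as well. ADAM7, a gene of the metalloprotease-disintegrin family best known from the epididymis, rose in all 4 breeds, from 2.4 to 183 CPM in Belclare (log2 fold change 6.26, SE 0.72, adjusted p = 4.96e-06), from 0.745 to 64 CPM in Fur (6.45), from 0.656 to 33.3 CPM in NWS (5.66) and from 1.07 to 28.7 CPM in Suffolk (4.78). PRODH rose in all 4 breeds as well (2.20, 1.6, 1.76 and 1.55). FGF9 was not called in any breed.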

How the data were processed

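Cervical RNA of 115 ewes was measured by RNA-seq from stranded mRNA libraries. The authors trimmed reads with BBDuk, aligned them to Oar_v3.1 with STAR 2.6.1b, kept uniquely mapped pairs and counted them over Ensembl genes with featureCounts (Subread 1.6.3). The deposited values are raw counts per gene, and whether counting used strand was not given in the sources used here. Groups followed the labels, and 1 ewe whose title and characteristics disagree entered no comparison. Names were matched for 1352 identifiers from the study's supplementary tables. No pair of ewes within a group held the same library (490 pairs, lowest chi-square per degree of freedom 16.1).

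Genes with at least 1 CPM in at least 10 of 114 ewes (15649) were fitted with edgeR 4.0.16 in R 4.3.3 (TMM, glmQLFit, glmQLFTest), with the ewes of the compared groups only. A call needed adjusted p under 0.05 and a fold change above 1.5. DESeq2 1.42.0 served as an alternative. Log2 CPM used a prior count of 2. Relations across ewes were tested with 100000 shuffles within groups. The fits were tested on simulated data. CD177, AQP9 and the gene lists were chosen with earlier results of these data known. Named genes are CD177, AQP9, list members with an identifier and the 10 named genes of highest r with each. The luteal index and the removal of ewes by it were added after the data were seen. No replicate label says which ewes share a day or batch, so p-values measure the spread between ewes. Counting intervals and floors cover counting error only.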

Additional observations from a re-analysis of the deposited data

Results flagged for a closer look

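Within groups of 4 to 10 ewes, 1 ewe stood far above the rest (Dixon's test on CPM) in 9 of 22 combinations of gene and group, where chance gives a share of about 0.05 for normally distributed values, while CPM is bounded at 0 and skewed towards high values for both genes. For CD177 these were Belclare natural follicular replicate 1 (183 CPM, next ewe 15.4), Belclare synchronised follicular replicate 7 (125 CPM, next 62.7), Fur synchronised follicular replicate 1 (25.8 CPM, next 6.99), Suffolk natural follicular replicate 5 (12.3 CPM, next 5.49) and Suffolk luteal replicate 5 (17.2 CPM, next 7.26). For AQP9 they were Belclare natural follicular replicate 6 (24.2 CPM, next 3.76), Fur synchronised follicular replicate 3 (112 CPM, next 5.9), Fur luteal replicate 5 (119 CPM, next 66.8) and Suffolk natural follicular replicate 2 (14.3 CPM, next 5.94). The group of 11 Suffolk synchronised follicular ewes, with 191 CPM of CD177 in replicate 6 and 21.1 CPM in the next ewe, was too large for this test.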

How the results depend on the processing

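In 34 tested values of CD177 and AQP9, 12 were called, and the same number was called with DESeq2's Wald test, its size factors, robust dispersions or a mean of at least 10 counts. Of 348 alternative values 304 kept their direction and their side of the threshold. The cause of the changes below was not tested. Without a filter the calls of AQP9 in Fur against natural follicular Suffolk (-1.72) and of CD177 in luteal against natural follicular NWS (-1.97) were lost. With 1 fit of all groups these were lost as well (-1.71 and -2.01), and AQP9 in luteal against synchronised follicular Fur was gained (1.87). The exact permutation test of mean log2 CPM, not possible for the interactions, lost AQP9 in natural follicular Fur against Suffolk (-1.28), in synchronised against natural follicular Fur (0.97) and in luteal against natural follicular NWS (3.07), and CD177 in luteal against natural follicular Belclare (-0.71), Fur (-1.54) and NWS (-1.24) and against synchronised follicular Belclare (-1.27). It gained AQP9 in luteal against synchronised follicular Fur (4.50) and CD177 in natural follicular Belclare against Suffolk (2.23), and reversed CD177 in luteal against synchronised follicular Fur (0.18). The exact p-values were adjusted over 28 comparisons only, and the edgeR p-values over 15649 genes. For CD177 in natural follicular Belclare against Suffolk the exact p was 0.00868 and the edgeR p was 0.00792. Those 2 p-values were close, and the adjustment differed.

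Replicate numbers did not pair the ewes, since in each of 16 comparisons some same-numbered pair had a negative correlation and 17 of 140 ewes correlated best with their own number. With the replicate block 5 of 34 values were called. Lost were AQP9 in natural follicular Fur against Suffolk (-1.22), synchronised against natural follicular Fur (0.69) and luteal against natural follicular NWS (3.01), and CD177 in natural follicular Fur against Suffolk (1.96), in luteal against natural follicular Belclare (-0.66), Fur (-1.29) and NWS (-0.88) and against synchronised follicular Belclare (-1.11). The block gained AQP9 in luteal against synchronised follicular Fur (4.70). It reversed AQP9 in luteal NWS against Suffolk (1.26) and CD177 in luteal Fur against Suffolk (0.03) and in luteal against synchronised follicular Fur (0.36).

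Leaving out the highest or the lowest ewe lost a call or turned the direction in these values. For AQP9 the range was -1.36 to 0.04 in natural follicular Belclare, -1.90 to -1.15 in Fur and -0.01 to 0.41 in NWS against Suffolk, 0.14 to 0.37 in luteal NWS against Suffolk, -0.04 to 0.52 for the NWS interaction, 0.37 to 3.45 in synchronised against natural follicular Fur and 2.89 to 3.23 in luteal against natural follicular NWS. For CD177 it was 2.11 to 2.24 in natural follicular and -0.23 to 0.31 in luteal Fur against Suffolk, -1.81 to -0.12 in luteal against natural follicular Belclare, -2.11 to -1.60 in NWS, and -0.50 to 0.55 in luteal against synchronised follicular Fur.

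Without the ewes nearer to the other phase, a choice made after seeing the data, AQP9 in luteal NWS against Suffolk became 0.14, in synchronised against natural follicular Fur 0.37 and in luteal against synchronised follicular Fur 5.08. The count of genes called in luteal against natural follicular NWS rose from 590 higher and 884 lower to 1199 and 1352, and that in natural follicular NWS against Suffolk from 77 and 68 to 164 and 81. Without the 2 ewes farthest in CD177, and with group means taken again, r between CD177 and AQP9 was -0.41 in natural follicular and 0.39 in luteal ewes and passed an unadjusted threshold. By Spearman's rho 7 of the 10 genes most like CD177 and 7 of those most like AQP9 were the same genes. Ewes with under 10 counts of a gene, as at the low end of AQP9 in follicular ewes, give log values of low precision.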

Other observations

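A single ewe entered no comparison, because its title gives a natural follicular Suffolk ewe and its characteristics an induced luteal one. It held 354 counts of AQP9 and 79 counts of CD177 in a total of 15387419, which is 23 and 5.13 CPM by its total.

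By the pattern of the 12 group means alone, a measure added after the data were seen, the named genes most like AQP9 were HDAC11 (r = 0.94), ADAM7 (0.92), METTL27 (0.92), NRCAM (0.92) and PTGS1 (0.91). ADAM7 was also among the 10 named genes most like AQP9 across ewes. Those most like CD177 included EXPH5 (0.84), UCP2 (0.83), ABLIM1 (0.83) and ATXN1 (0.82), none of which was among the 10 across ewes. The 12 points share their libraries, and these values are a description.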
